A study of Mus musculus with 3 samples.

Results

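Of the 55536 annotated mouse genes measured, the 10 described here were chosen by symbol, with earlier results of these data known. They are 6 matrix metalloproteinases (Mmp8, Mmp9, Mmp12, Mmp13, Mmp14 and Mmp19), 3 tissue inhibitors of metalloproteinases (Timp1, Timp2 and Timp3) and the sheddase Adam17. All of them were found in the tables under these symbols. The study sequenced chromatin-associated RNA, which is enriched in nascent transcripts, after ribosomal RNA depletion. The cells were C57BL/6J macrophages derived from bone marrow, phagocytes that are grown from marrow precursors in culture. All 3 libraries belong to 1 group. The cells received Lipid A, the Toll-like receptor 4 agonist in bacterial lipopolysaccharide, at 100 ng/ml for 12 h, were kept without it for 12 h and were then given 100 ng/ml for another 40 min. Each library had its own RNA input (replicate 1, 1 µg; replicate 2, 250 ng; replicate 3, 500 ng), so input and replicate cannot be told apart. The labels call the libraries biological replicates but name the same donor, at the level of the strain, for all of them. Other treatments were not analysed here, so the values below are levels after this schedule and not responses to it.

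Matrix metalloproteinases are zinc enzymes that are made as inactive proenzymes and cut collagens, elastin, proteoglycans and many cell-surface or secreted proteins. Tissue inhibitors of metalloproteinases bind their active sites. ADAM17 is a membrane-anchored relative that releases the ectodomains of TNF, its receptors and other surface proteins, and TIMP3 is its best-known tissue inhibitor. Macrophages are a source of several of these enzymes in inflamed tissue, where AP-1 and NF-kB are known regulators of metalloproteinase genes.

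Expected counts in annotated genes summed to 13802716, 17187524 and 16502809 for replicates 1, 2 and 3, and sets of 3 values are given in this order throughout. A count of 0 allows up to 3 counts, equal to 0.217, 0.175 and 0.182 CPM (the count scaled to a common library total), and these limits cover counting error only. All 10 macrophage markers passed the mean of 10 counts used here for detection, with a summed level of 1120 to 1254 TPM (a level scaled by transcript length and library total). Of 12 neutrophil markers only Csf3r passed in the gene tables, where Cxcr2, Ltf, Ly6g, Prtn3 and Retnlg had 0 counts in the 3 libraries. Of 12 fibroblast markers 4 passed, and the list summed to 4.71, 7.03 and 7.09 TPM. Of 8 markers each, 3 passed for osteoclasts, 4 for megakaryocytes and 4 for endothelial cells. In the quantification made from the reads, 10 macrophage, 3 neutrophil, 8 fibroblast, 5 osteoclast, 7 megakaryocyte and 5 endothelial markers passed. There Cxcr2 had 4.26 TPM and Thy1, a fibroblast marker, 12.5 TPM. Over all protein-coding genes 49.7% passed in the gene tables and 66.9% from the reads. In bulk RNA, fewer cells of a type and less RNA per cell cannot be told apart.

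Mmp14 and Adam17 were the abundant members, and the other 8 genes lay far below them. Of the 10 members, 6 had a mean of at least 10 expected counts (Mmp12, Mmp13, Mmp14, Mmp19, Timp2 and Adam17), beside 49.7% of all 22028 protein-coding genes. In TPM the order of mean levels was Mmp14, Adam17, Mmp13, Timp2, Mmp12, Mmp19, Timp1, Mmp8, Mmp9 and Timp3. The ranges over the 3 libraries did not overlap between Adam17 and Mmp13, between Timp1 and Mmp8 or between Mmp8 and Mmp9. Timp1, Mmp8 and Mmp9 had means of only 7, 7.33 and 1 counts, under the minimum of 10. Their order is therefore uncertain, and by mean counts Mmp8 was above Timp1. The other 6 pairs of neighbours overlapped, although Timp2 exceeded Mmp12 within each of the 3 libraries.

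**Figure D1:**
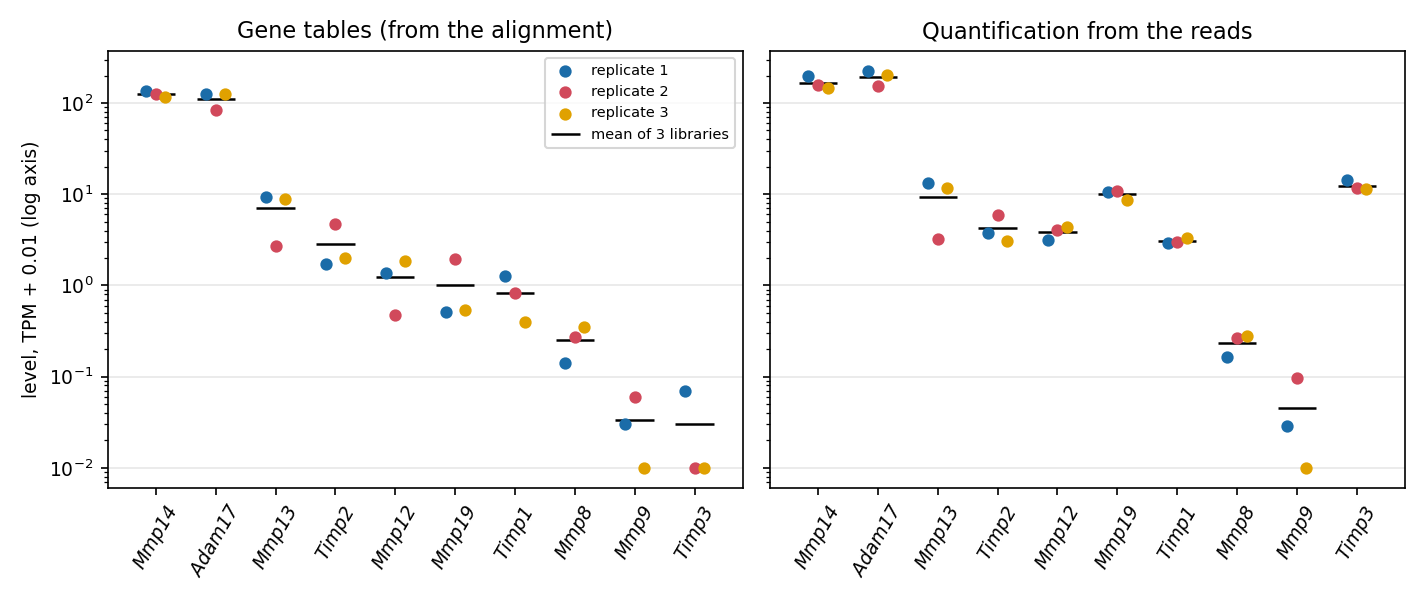
Level of each member (TPM + 0.01, logarithmic axis) in replicates 1, 2 and 3, with the mean of 3 libraries as a bar, from the gene tables (left) and from the read-based quantification (right). Mmp14 and Adam17 stand above the rest in both, whereas Timp3 has a mean of 0.02 TPM on the left and 12.4 TPM on the right.

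Mmp14 encodes membrane-type 1 matrix metalloproteinase, which cuts fibrillar collagen at the cell surface and activates pro-MMP2. Its gene lies on the plus strand at chr14:54431612-54445364 (mm10). Its level was 134, 125 and 116 TPM, from 3022, 2845 and 2414 expected counts, with a mean of 125 ± 9.14 TPM (SD, n = 3). In TPM of the gene tables the 3 libraries lay close together. They lay further apart in CPM, at 219, 166 and 146, and in TPM from the reads, at 196, 159 and 147. TPM rescaled over protein-coding genes was 488, 407 and 362, so the closeness of the libraries depended on the unit. Mmp14 ranked 454th among protein-coding genes. It made up 92.2%, 95.9% and 90.9% of the summed TPM of the 6 metalloproteinases.

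Much of the Mmp14 level was assigned to annotated transcripts that keep an intron. The coding transcript Mmp14-201 took 36.2%, 35.0% and 32.2% of the gene's TPM. Mmp14-205, a retained-intron transcript that begins in exon 1 and ends inside intron 1, took 25.2%, 35.6% and 31.6%. Mmp14-204, which keeps the whole of intron 2 (244 bases), took 20.4%, 17.2% and 20.9%. The exon-intron boundaries that these transcripts read through are shown because they carry this share of the signal, with 30 coding bases in lower case and the first 40 intron bases in capitals (mm10, GENCODE M21).
Mmp14 intron 1, plus strand, chr14:54431944-54432013: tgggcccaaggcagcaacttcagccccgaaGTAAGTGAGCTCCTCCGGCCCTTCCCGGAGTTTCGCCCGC
Mmp14 intron 2, plus strand, chr14:54435864-54435933: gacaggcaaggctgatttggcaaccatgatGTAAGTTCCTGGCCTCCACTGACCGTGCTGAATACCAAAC

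Together the 3 retained-intron transcripts of Mmp14 held 53.7%, 56.4% and 56.5% of its TPM. They are shorter than the coding transcripts Mmp14-201 and Mmp14-206, and by counts their share was 30.5%, 34.8% and 33.9%. A retained-intron transcript and a precursor whose intron has not yet been removed share these boundaries and cannot be told apart in this fraction. Of the mean TPM the retained-intron share was 55.5%, against a median of 42.3% (quartiles 26.8% and 58.3%) over 6290 genes with both kinds of transcript and a mean of at least 1 TPM. The share of Mmp14 thus lay inside the middle range of such genes. Quantified from the reads it was 51.8%, while Mmp14-201 averaged 23.8% ± 1.39 (SD, n = 3) and Mmp14-207, another retained-intron transcript, 21.8% ± 3.45.

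**Figure D2:**
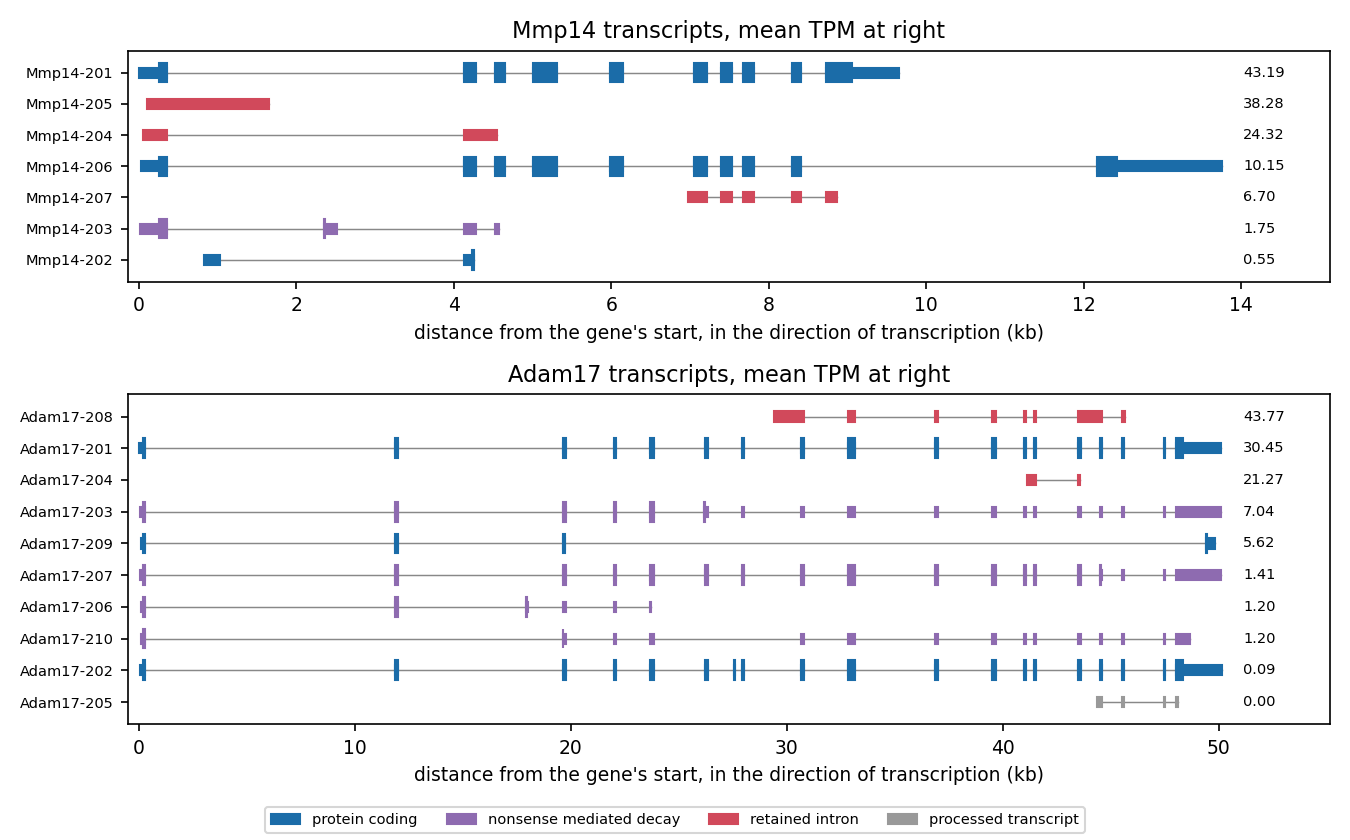
Annotated transcripts of Mmp14 and Adam17 drawn to scale from the gene's start in the direction of transcription (kb), with exons as boxes, coding parts as taller boxes, colour for transcript type, and the mean TPM of 3 libraries from the alignment-based table at right. The retained-intron transcripts Mmp14-205 (38.28 TPM) and Adam17-208 (43.77 TPM) cover only part of each gene.

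Mmp13, collagenase 3, which degrades fibrillar collagen and is best known from bone and cartilage, followed Mmp14 among the 6 metalloproteinases in the gene tables, while from the reads Mmp19 (10.1 TPM) was above it (9.40 TPM). It lies on the plus strand at chr9:7272514-7283331, beside Mmp12 and Mmp8 on the same chromosome. Its level was 9.41, 2.67 and 8.85 TPM, from 324, 92 and 286 expected counts. Replicate 2 was low and the other libraries were close to each other, so the mean of 6.98 ± 3.74 TPM (SD, n = 3) describes none of the 3 well. Quantification from the reads gave the same order, at 13.2, 3.25 and 11.7 TPM. Mmp13 has 1 annotated transcript, so its level cannot be split further.

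Mmp12, macrophage elastase, was at the 57.1 percentile of protein-coding genes by mean level. It lies at chr9:7344381-7369499 on the plus strand, and Mmp1b, with 0 counts, overlaps its end by 1261 bases on the opposite strand. Its level was 1.35, 0.46 and 1.86 TPM, from 39, 26 and 35 expected counts, a mean of 1.22 ± 0.709 TPM (SD, n = 3). From the reads it was 3.10, 4.0 and 4.42 TPM, and in CPM the mean from the reads was 5.95 times that of the gene tables. Over 10952 detected protein-coding genes this ratio had a median of 0.991 and a 95th percentile of 3.26. Replicate 2 was the lowest of the 3 in the gene tables and replicate 1 was the lowest in the read-based quantification.

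Most counts of Mmp12 went to Mmp12-206, a retained-intron transcript that keeps the whole of intron 1 (1046 bases) and 2192 bases of intron 8. It took 67.1%, 81.8% and 69.1% of the gene's expected counts, and 85.8%, 97.0% and 95.6% of its TPM when quantified from the reads. The coding transcripts together had 2.80%, 18.2% and 17.3% of the expected counts. Of the mean alignment-based TPM of Mmp12 the retained-intron share was 33.2%, under the median of 42.3% given for such genes. From the reads this share was 93.4%, above that of 95.4% of such genes, so its place among them depends on the quantification. In alignment-based TPM the leading transcript by mean level was Mmp12-205, 410 bases long, with 31.9%, 0% and 63.4%, but in replicate 3 that share came from 2.59 expected counts. The boundary of intron 1 is given in the same notation as for Mmp14.
Mmp12 intron 1, plus strand, chr9:7347509-7347578: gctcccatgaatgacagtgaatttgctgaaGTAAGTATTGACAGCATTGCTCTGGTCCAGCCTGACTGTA

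**Figure D3:**
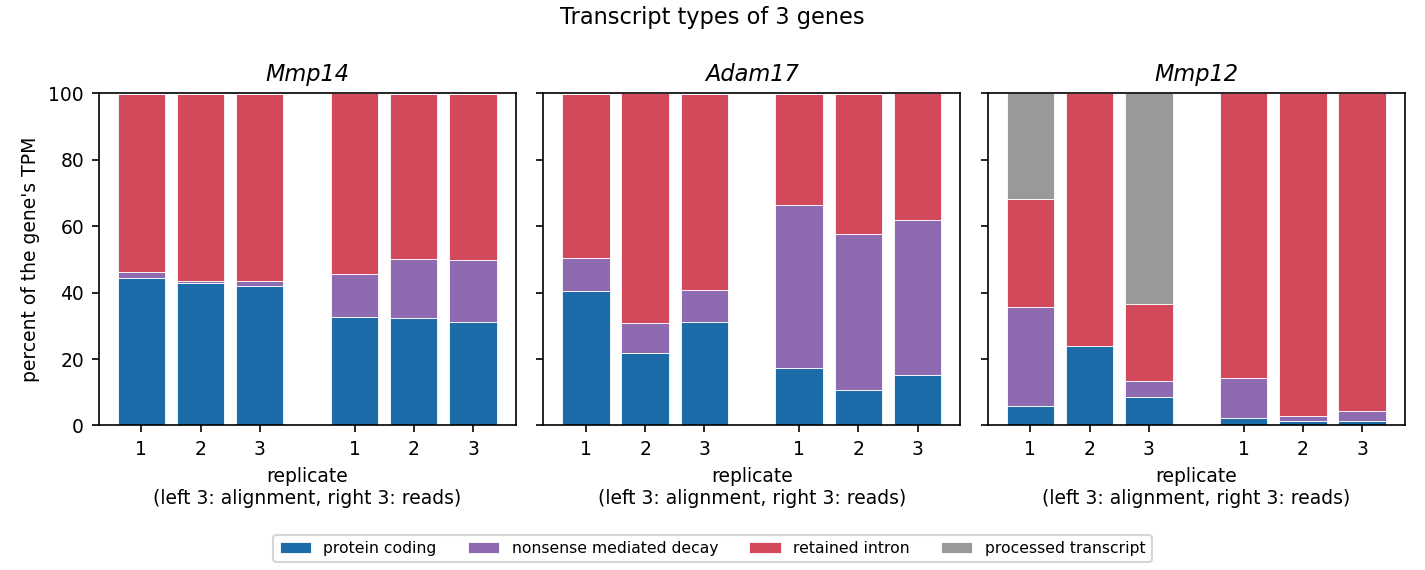
Percent of each gene's TPM by annotated transcript type for Mmp14, Adam17 and Mmp12, 1 bar per library, with the alignment-based table in the left 3 bars and the read-based quantification in the right 3 bars of each panel. The bars of Mmp14 differ little between libraries, whereas those of Mmp12 vary between libraries in the alignment-based table and are almost all retained intron in the other.

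Mmp19, which cuts basement membrane components, lies at chr10:128790910-128800824 on the plus strand. Its level was 0.50, 1.95 and 0.53 TPM, from 22.2, 77.5 and 22.4 expected counts. Replicate 2 was high and the other libraries were nearly equal. Quantification from the reads placed it much higher, at 10.7, 10.9 and 8.72 TPM, and there replicate 2 did not stand apart from replicate 1. In CPM the mean from the reads was 7.26 times that of the gene tables, above the 95th percentile of 3.26 given for detected genes. The coding transcript Mmp19-201 held 100%, 69.2% and 100% of the alignment-based TPM, but 7.18%, 27.5% and 19.7% from the reads, where the shorter coding transcript Mmp19-203 averaged 80.4% ± 12.5 (SD, n = 3).

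The whole of Mmp19 lies within the antisense gene Gm47093. That gene had a mean of 0.08 TPM in the gene tables and 2.94 TPM from the reads. Tmem198b, also on the opposite strand, overlaps the end of Mmp19 by 789 bases and had 1.07 TPM. Whether reads were assigned by strand is not given in the sources used here, and without strand the reads of Mmp19 and its antisense partner cannot be told apart.

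Mmp8 and Mmp9, the collagenase and the gelatinase best known from neutrophil granules, were scarcely measured. Mmp8 (chr9:7558456-7568485) had 4, 8 and 10 expected counts and a level of 0.13, 0.26 and 0.34 TPM. Mmp9 (chr2:164940780-164955850) had 1, 2 and 0 counts and a level of 0.02, 0.05 and 0 TPM. Mmp9 was below the limit that a count of 0 allows in each library, so its presence was not detectable at this depth. The read-based quantification also held few counts, with a mean of 11 for Mmp8 and 1.67 for Mmp9.

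The inhibitors were low as a group. Timp2, which inhibits several metalloproteinases and also joins pro-MMP2 to MMP14 at the cell surface, was the only inhibitor detected in the gene tables. It lies on the minus strand at chr11:118301069-118355740. Its level was 1.69, 4.73 and 1.99 TPM, from 65, 150 and 70 expected counts, a mean of 2.80 ± 1.68 TPM (SD, n = 3). Replicate 2 was high here and also from the reads, where the levels were 3.76, 5.85 and 3.03 TPM. Cep295nl, which lies inside Timp2 on the same strand, had 1.44, 4.76 and 1.5 TPM from 29, 99 and 27 counts and was likewise high in replicate 2. The longer coding transcript Timp2-201 held 75.1%, 59.0% and 72.7% of the alignment-based TPM, but a mean of 35.1% ± 4.42 (SD, n = 3) from the reads.

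Timp1, a secreted inhibitor known as a gene induced in inflammation, had 11, 7 and 3 expected counts and 1.25, 0.81 and 0.39 TPM. It lies at chrX:20870166-20874735 on the plus strand, wholly inside Syn1, which is transcribed from the minus strand and had 1.97, 3.23 and 3.58 TPM. From the reads Timp1 had 2.93, 3.02 and 3.32 TPM and a mean of 42.7 counts. Replicate 1 was the highest in the gene tables and the lowest from the reads, where the 3 libraries were nearly equal.

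Timp3, the matrix-bound inhibitor of ADAM17, was the member on which the quantifications differed most. It lies at chr10:86300372-86349506 on the plus strand, wholly inside Syn3 on the minus strand. In the gene tables it had 3, 0 and 0 counts, at or under the limit that a count of 0 allows. From the reads it had 212, 256 and 326 counts and 14.2, 11.7 and 11.4 TPM, above the means of all members but Mmp14 and Adam17. Of this TPM 86.7%, 85.3% and 69.3% went to Timp3-203, an annotated transcript of 674 bases with no coding sequence, which has 0 counts in the alignment-based table. The coding transcript Timp3-201 had 0.151 TPM and a mean of 14.3 counts from the reads. Syn3 had 1.16 TPM in the gene tables and 2.94 TPM from the reads. The strand limit stated for Mmp19 holds for Timp3 and Timp1 as well.

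Set against the proteases, the inhibitors were outnumbered in every library. The summed TPM of the 6 metalloproteinases was 145, 130 and 127, and that of the 3 inhibitors was 3.00, 5.54 and 2.38. The log2 ratio of inhibitors to metalloproteinases was therefore -5.60, -4.56 and -5.74, a mean of -5.30 ± 0.647 (SD, n = 3). An exact sign-flip test over 3 libraries cannot go below 0.25, so no p-value is given. From the reads the ratio was -3.42, -3.11 and -3.28, a mean of -3.27. Most of the inhibitor sum there was Timp3, with a mean of 12.4 of 19.7 TPM. A mean of 98.8% of that Timp3 level went to transcripts not annotated as coding. The sums rest on Mmp14 on one side and on Timp2 or Timp3 on the other, and they compare RNA and not protein or activity.

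Adam17, also known as TNF-alpha converting enzyme, lies on the minus strand at chr12:21323509-21373632. Its level was 125, 84.3 and 127 TPM, from 4943, 3231 and 4985 expected counts, a mean of 112 ± 24.03 TPM (SD, n = 3). Replicate 2 was lower than the other libraries, which were nearly equal in TPM. In CPM Adam17 was 358, 188 and 302. Replicate 2 was also the lowest from the reads, at 227, 154 and 204 TPM. Mmp14 exceeded Adam17 in 2 of the 3 libraries of the gene tables, and their ranges overlapped. From the reads the mean of Adam17 (195 TPM) was above that of Mmp14 (167 TPM), so the order of the leading pair depends on the quantification.

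The leading Adam17 transcript was Adam17-208, a retained-intron transcript of 3456 bases from the later part of the gene. It keeps the whole of intron 15 (900 bases), 1252 bases of intron 7 and 65 bases of intron 17. It took 35.9%, 42.3% and 40.0% of the gene's TPM. The coding transcript Adam17-201 took 29.4%, 21.5% and 28.8%, and the retained-intron transcript Adam17-204 took 13.6%, 26.7% and 19.1%. In TPM the low level of replicate 2 was not shared by all transcripts. Adam17-201 had 36.7, 18.1 and 36.6 TPM, while Adam17-204 had 17.0, 22.6 and 24.2 TPM. The authors' intervals for Adam17-204 overlapped, at 12.5 to 19.5, 16.6 to 25.2 and 17.9 to 26.9 TPM. Its expected counts were 79.8, 88.3 and 92.3, and against the library totals replicate 2 was the lowest here too. The boundary of intron 15 is shown in the same notation.
Adam17 intron 15, minus strand, chr12:21329993-21330062: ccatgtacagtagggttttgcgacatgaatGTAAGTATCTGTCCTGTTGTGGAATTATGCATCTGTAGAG
The 4 introns shown for Mmp14, Mmp12 and Adam17 all begin with GTAAGT, a common form of the splice donor. Of the boundaries not shown, intron 17 of Adam17 begins with GTAAGT and intron 8 of Mmp12 with GTAAGG.

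Of the mean Adam17 TPM 58.0% lay in retained-intron transcripts, close to the upper quartile of 58.3% given for 6290 genes. From the reads the share was 37.5%, and there the leading transcript was Adam17-206, 702 bases long and annotated as a target of nonsense-mediated decay, with 75.5 TPM. The alignment-based table gave it 1.2 TPM. The coding transcript Adam17-201 averaged only 2.41% ± 1.36 of the gene's TPM from the reads (SD, n = 3). All coding transcripts of Adam17 together averaged 14.5% from the reads and 31.2% in the alignment-based table. The snRNA gene Gm22766, 99 bases on the opposite strand inside Adam17, had 0 counts in the gene tables and a mean of 38.3 counts from the reads. Iah1, which overlaps the end of Adam17 by 311 bases, had 4.43 TPM.

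The spread between libraries was then compared with counting error. Each gene's 3 counts were tested by chi-square against Poisson sampling at library sizes scaled by edgeR's TMM factors, with Benjamini-Hochberg adjustment over 14330 genes. All 6 members that could be tested varied by more than counting error, beside 55.2% of all genes tested. The adjusted p was 2.71e-241 for Adam17, 1.96e-51 for Mmp14, 8.45e-44 for Mmp13, 2.46e-07 for Mmp19, 2.02e-05 for Timp2 and 0.0384 for Mmp12. These p-values follow the number of counts as well as the size of the difference. They measure only the spread between these samples, part of which may be technical.

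On the log2 CPM scale the spread was greatest for Mmp13. The SD of its log2 CPM was 1.19, above 98.7% of genes tested. The SD was 0.86 for Mmp19, 0.55 for Adam17, 0.50 for Mmp12, 0.48 for Timp2 and 0.29 for Mmp14, against a median of 0.26 and a 90th percentile of 0.64 over all genes tested. In TPM the order differed, as the highest library was 4.04 times the lowest for Mmp12, 3.9 times for Mmp19 and 3.52 times for Mmp13. The Mmp12 level included 0.43, 0 and 1.18 TPM of the short Mmp12-205, from 1.27, 0 and 2.59 expected counts. In CPM Mmp12 was 2.83, 1.51 and 2.12. By the SD of log2 CPM, Mmp14 varied about as much as a typical gene, and the SD of Mmp19 was above that of 96.0% of genes.

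Much of this spread lay between replicate 2 and the other libraries. That contrast was chosen after the values were seen and is given as a description. In log2 CPM, replicate 2 minus the mean of replicates 1 and 3 was -2.04 for Mmp13, -0.94 for Adam17, -0.82 for Mmp12 and -0.25 for Mmp14. It was 0.83 for Timp2 and 1.48 for Mmp19. Over all genes tested the median of this difference was 0.04, with 5th and 95th percentiles of -0.87 and 0.93. Mmp13, Adam17 and Mmp19 lay outside these percentiles. In TPM, replicate 2 of Mmp14 lay between the other libraries. Without replicate 2, 3 of the 6 (Adam17, Mmp13 and Mmp14) still passed, beside 27.9% of genes tested, while the adjusted p was 0.494 for Mmp12, 0.800 for Mmp19 and 0.854 for Timp2. Without replicate 1, Mmp14 (adjusted p = 0.632) and Mmp12 (adjusted p = 0.120) did not pass. For Mmp14 it was replicate 1 that stood apart, with a log2 CPM of 7.78 against 7.28 and 7.27.

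**Figure D4:**
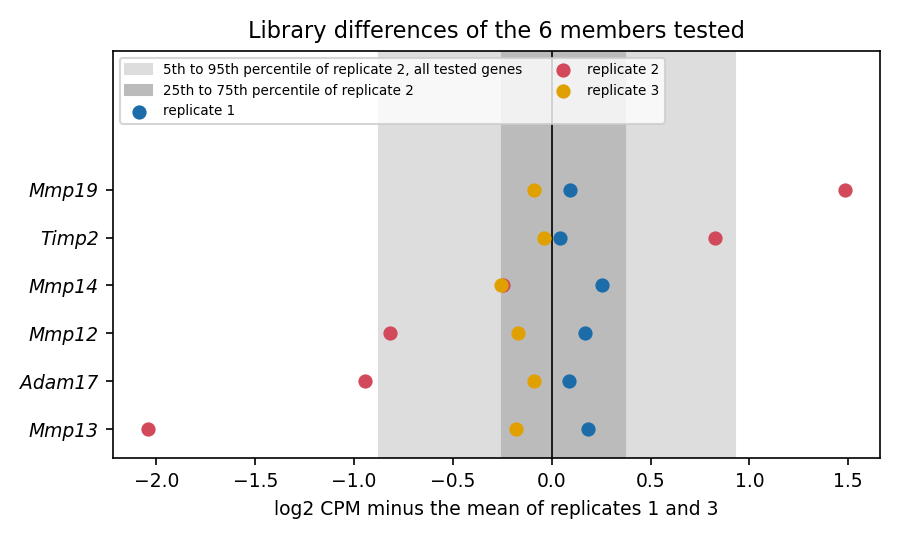
Log2 CPM of the 6 tested members in each library minus the mean of replicates 1 and 3, with shaded bands for the percentiles of replicate 2 over all tested genes. Replicate 2 lies at -2.04 for Mmp13 and at 1.48 for Mmp19, outside the wider band, while the points of Mmp14 lie within or at the edge of the narrower band.

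Replicate 2 had the lowest RNA input. The macrophage markers summed to 1120, 1254 and 1159 TPM, so their sum was highest there. In log2 CPM 4 of the 10 markers were highest in replicate 1, 4 in replicate 2 and 2 in replicate 3. Over all genes tested 41.0% were highest in replicate 2. The fibroblast collagens Col1a1, Col1a2 and Col3a1 had 0 TPM in replicate 1 and 0.26 to 0.82 TPM in replicates 2 and 3, so they did not single out replicate 2. Of the markers of endothelial cells and megakaryocytes, Vwf had 28.7, 24.6 and 50.3 TPM and Kdr had 6.85, 2.51 and 2.72 TPM. In log2 CPM, replicate 2 minus the mean of the other libraries was -1.15 for Vwf and -1.14 for Kdr. Both were below the 5th percentile of all genes, in the direction of Mmp13 and Adam17. For the other tested markers of these lists this difference was 0.46 (Pecam1), 0.14 (Eng), 0.24 (Gp9), -0.09 (Itga2b) and -0.15 (Gp1ba). The endothelial list summed to 46.95, 48.87 and 61.49 TPM and the megakaryocyte list to 33.87, 34.43 and 55.93 TPM, both lowest in replicate 1, and the endothelial marker Emcn had 0 TPM. The part of RNA input or of other cells in the spread of Mmp13, Adam17, Timp2 and Mmp19 was not tested.

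AP-1 is a known regulator of Mmp13, so the 250 bases before the members' starts were searched for the AP-1 word TGACTCA on both strands (TGAGTCA on the other strand). RefSeq promoter sequences (GRCm38.p6) were found for 8 of the 10 members, all but Mmp9 and Mmp19. The word occurred before Mmp13, 35 bases from the start, and in 1 of the 2 entries of Mmp12, 44 bases from the start. It is shown in capitals.
Mmp13, plus strand, chr9:7272464-7272500: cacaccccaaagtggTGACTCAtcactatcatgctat
Mmp12, plus strand, chr9:7347315-7347351: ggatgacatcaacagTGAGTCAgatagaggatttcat
Of 32851 promoters of the same length, 4.46% held the word. The NF-kB consensus was not found in the windows of the members and occurred in 3.90% of all promoters. A match describes the sequence only and shows no binding.

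Of the 12 genes of AP-1 and NF-kB subunits, 11 were detected, beside 49.7% of all protein-coding genes. Nfkb1 had 120 ± 28.9 TPM, Junb 120 ± 18.6, Nfkb2 106 ± 20.9 and Rel 61.0 ± 16.7 (SD, n = 3). Fosl1 was the subunit not detected. Of the 11 tested, 8 were highest in replicate 3, beside 29.9% of all genes tested, and 9 varied beyond counting error, beside the 55.2% given for all genes.

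Among the other metalloproteinases, 4 of 16 were detected in the gene tables and 9 from the reads, beside 49.7% and 66.9% of protein-coding genes. Mmp27 was the highest of them in the gene tables, with 16.9, 16.7 and 26.1 TPM, a level between those of Adam17 and Mmp13. From the reads Mmp27 had a mean of 21.1 TPM and Mmp16, listed at 0 in the gene tables, 16.3 TPM. Mmp23 had 0.83 TPM from a mean of 8 counts, Mmp2, the gelatinase that MMP14 activates, had 0.717 ± 0.335 TPM, and Mmp24 had 0.447 ± 0.156 TPM (SD, n = 3). Mmp1b and Mmp7 had 0 counts and Mmp3 and Mmp10 a mean of 0.333 counts. None of 7 other inhibitors was detected in the gene tables, among them Timp4, Reck, A2m and Spock1, whereas 3 of the 7 were in the read-based quantification.

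Most of the listed genes around ADAM17 were detected, and the lists were chosen with earlier results of these data known. Of all protein-coding genes 49.7% were detected in the gene tables and 66.9% from the reads. Of 15 partners and relatives 12 were detected, led by Rhbdf2 at 87.0 ± 5.44 TPM (SD, n = 3), which encodes the iRhom2 protein that carries ADAM17 out of the endoplasmic reticulum. Adam8 had 61.8 ± 21.5 TPM, Adam9 36.6 ± 1.64 TPM and Adam15 35.1 ± 10.3 TPM, while Adam12, Adam28 and Tspan15 were not detected in the gene tables. All 15 were detected from the reads. Of 16 genes whose products ADAM17 is known to release, 11 were detected in the gene tables and 14 from the reads. Tnf had 506 ± 139 TPM, Icam1 409 ± 122, Csf1r 180 ± 17.5 and Tnfrsf1b 147 ± 38.8. Areg, Ereg, Cd163 and Il1r2 were not detected in the gene tables. Tnf was 436, 417 and 667 TPM and thus was highest in replicate 3. Adam17 had nearly equal TPM in replicates 1 and 3 (125 and 127), but 358 and 302 CPM.

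Of 14 genes that activate proenzymes, belong to the plasminogen system or bind metalloproteinases, 9 were detected in the gene tables and 12 from the reads. The shares of all protein-coding genes detected were 49.7% and 66.9%. Furin, the convertase that activates MMP14 inside the cell, had 33.4, 34.1 and 33.7 TPM, although in log2 CPM it varied by more than counting error (adjusted p = 4.26e-13). Cd44, a surface anchor of metalloproteinases, had 53.6 ± 24.5 TPM (SD, n = 3), Pcsk7 32.1 ± 4.70 and Plau, the urokinase plasminogen activator, 10.6 ± 0.816. Pcsk5, Pcsk6, Plat and Plg were not detected in the gene tables. Of 6 Adamts and Adamts-like genes 3 were detected in the gene tables and all 6 from the reads. The gene tables gave the Adamts-like gene Adamtsl4 at 45.2 ± 10.6 TPM, Adamts10 at 23.5 ± 1.96 TPM and Adamts1 at 0.237 ± 0.103 TPM. Adamts4, Adamts5 and Adamts9 were not detected there. Adamts9 had 8.06 TPM from the reads.

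Quantified from the reads, 9 of the 10 members reached a mean of 10 counts, beside 66.9% of protein-coding genes. The 3 members gained were Mmp8, Timp1 and Timp3, and Mmp9 remained under it. In CPM the ratio of the reads to the gene tables was 1.01 for Mmp14, 1.08 for Adam17, 1.22 for Mmp13, 0.897 for Timp2 and 0.882 for Mmp8. These lay between the 5th and 95th percentiles, 0.738 and 3.26, of detected genes, while Timp1 (3.46), Mmp12 (5.95) and Mmp19 (7.26) lay above them. The difference was larger still for Timp3, for which no ratio is given because the gene tables held 3, 0 and 0 counts against 212, 256 and 326 from the reads.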

How the data were processed

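The authors deposited gene and transcript tables of expected counts and TPM, derived from transcriptome alignments (mm10, GENCODE M21), and a transcript table of estimated counts and TPM made from the reads, per the file headers and labels. Main values came from the gene tables. For aligner, quantifier and strand setting, names and versions were not given in the sources used here. As the alternative, the table made from the reads was summed to genes. Entries naming no gene (1.13%, 0.324% and 0.279% of counts) were left out of library sizes. From the reads, annotated genes held 21006413, 30933271 and 28138803 estimated counts.

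Detection required a mean of at least 10 counts. Expected counts were rounded to whole numbers and each gene was tested by chi-square against Poisson sampling with TMM factors (edgeR 4.0.16, R 4.3.3), adjusted by Benjamini-Hochberg at 0.05 over all genes tested. The test was tried on simulated data. log2 CPM had a prior count of 0.5. With 1 group no contrast was fitted. Alternatives were DESeq2 1.42.0 size factors, total counts, no filter, other minimums and pseudocounts, TPM over protein-coding genes, the reads and leaving out each replicate. Named were all members, transcripts with at least 10% of a member's mean TPM, overlapping genes and, per list, up to 4 of the highest and 4 undetected genes; a few others (lesser transcripts, markers, collagens, Mmp16 and Adamts1) were named after their values were seen. The members and lists were chosen with earlier results of these data known. Mmp1a was not found under this symbol.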

Additional observations from a re-analysis of the deposited data

How the results depend on the processing

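The number of members detected (6) became 9 from the reads and 5 at a minimum mean of 1 TPM, and was 6 without each replicate in turn. The number that varied beyond counting error (6) was 5 with total counts or with no filter, where Mmp12 was lost (adjusted p = 0.0693 and 0.0604), 6 with DESeq2 size factors and 7 of 9 tested from the reads. Leaving out each replicate in turn gave 3 to 6, with 3 without replicate 2; that setting removes a library, and the cause was not tested. The log2 ratio of inhibitors to metalloproteinases (-5.30) was -4.99 in CPM, -5.08 to -5.67 without each replicate and -3.27 from the reads; the part of strand assignment in that shift was not tested. The sign of the ratio was the same under these alternatives, but from the reads the mean of Adam17 exceeded that of Mmp14 (195 against 167 TPM), and Timp3 (12.4 TPM) moved above the 7 members other than those. TPM rescaled over protein-coding genes raised the mean of each member, to 419 for Mmp14 and 376 for Adam17,; a ratio within a library cannot change under that scaling. No paired analysis was possible because there is 1 group. In the gene tables Mmp8, Mmp9, Timp1 and Timp3 had means of 7.33, 1, 7 and 1 counts, and from the reads 11, 1.67, 42.7 and 265; few counts limit the precision of Mmp8 and Mmp9 in both.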
